A study of Mus musculus with 24 samples.

Results

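The MYC family and its partners were followed in mouse embryonic fibroblasts lacking the DNA sensor cGAS (KO) and in wild-type (WT) fibroblasts. The set holds 10 genes of the 45706 in the gene table. They are Myc, Mycn and Mycl, their common partner Max, the repressors Mxd1, Mxd3, Mxd4 and Mxi1, and the large MAX partners Mnt and Mga. All 10 were among the 17233 genes that passed the filter on low counts. The set was chosen from measured values of these same libraries, because Mycn was higher in the KO cultures. KO and WT levels of the 10 genes are therefore a description, and no p-value is given for them.

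MYC proteins are transcription factors that act in a pair with MAX. The pair binds the E-box CACGTG and raises the transcription of genes for ribosome building, nucleotide synthesis and cell division. MXD proteins and MNT take MAX into pairs that bind the same sites and recruit a histone deacetylase complex, so that these genes are repressed. In fibroblasts Myc follows growth factor signals, whereas Mycn is known above all from embryonic and neural tissue.

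The cells were primary fibroblasts grown out of dissociated embryos of the strain labelled C57B1/6, with the genotype labels KO for cGAS and WT. Both genotypes were cultured under 20% oxygen, and RNA of whole populations was taken on day 33 (11 passages), day 36 (12 passages) and day 42 (14 passages) and sequenced as stranded, poly(A)-selected libraries. The sources used here do not say how the KO was made, how many embryos were pooled or whether the days came from separate cultures. The title of the series names cGAS as a promoter of senescence, in which aged cells stop dividing.

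The 4 numbered columns of a genotype on one day differed by no more than sampling noise, so each set of 4 was added up to 1 library. This left 3 KO libraries of 25650577 to 36447008 counts and 3 WT libraries of 35024528 to 48716880 counts. Levels are given as CPM, a gene's counts relative to the size of its library after TMM scaling, for days 33, 36 and 42 in that order. Mb21d1, the gene of cGAS, had 8, 0 and 5 counts in KO and 222, 178 and 168 counts in WT, as labelled. The summed fibroblast markers stood at 20976 to 26407 CPM in KO and 25731 to 27197 CPM in WT, a sum carried by Col1a1, Col1a2 and Vim, which were high in every library. All 9 markers of that list had a negative log2 fold change between KO and WT, with a median of -0.92 (-1.03 to -0.82 when any 1 library was left out). S100a4 passed the test, with a log2 fold change of -0.92 ± 0.13 (edgeR's quasi-likelihood test, adjusted p = 0.0133). Without KO day 36, KO day 42 or WT day 33 its adjusted p was above 0.05, while its fold change stayed between -1.045 and -0.82 under all 6 omissions. The other 8 did not pass, among them Thy1 with 509 ± 118 CPM in KO and 1102 ± 353 CPM in WT, Pdgfra with 26.3 ± 16.7 CPM in KO and 81.4 ± 31.8 CPM in WT, and Dcn with 12.9 ± 5.38 CPM in KO and 88.6 ± 74.6 CPM in WT. The part of this shift in the values below was not tested. Xist, transcribed from the inactive X chromosome, was at 465 to 641 CPM in KO and at 0.057 to 0.363 CPM in WT. The Y-linked gene Uty was at 2.69 to 2.91 CPM in KO and at 29.92 to 31.99 CPM in WT, so the sex makeup of the cultures and the genotype cannot be told apart. In these bulk libraries, more cells expressing a gene and more RNA per cell cannot be told apart either.

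Mycn (chromosome 12, 12936093 to 12941914, minus strand, mm10, ENSMUSG00000037169) differed between libraries by more than any other member. Its level was 0.778, 12.80 and 15.04 CPM in KO on days 33, 36 and 42, against 0.598, 0.504 and 0.459 CPM in WT. The KO and WT values did not overlap, but the KO library of day 33 lay close to the WT libraries, and the other 2 KO libraries lay far above all of them. Behind these levels were 26, 343 and 593 counts in KO and 28, 22 and 16 counts in WT.

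On day 33 the KO level was 1.301 times the WT level, with an exact 95% counting interval of 0.733 to 2.30 that includes no difference. The KO to WT ratio was 25.4 on day 36 (16.5 to 41.0) and 32.8 on day 42 (20.0 to 57.7). Each of these ratios compares 1 library with 1 library, and the intervals cover counting error only. Most of the gain in KO lay between days 33 and 36, when Mycn became 16.5 times as abundant (11.0 to 25.6), while day 42 exceeded day 36 by a factor of 1.18 (1.03 to 1.35). In WT the day 42 to day 33 ratio was 0.767 (0.388 to 1.47), an interval that includes no change. Over the 3 libraries of each genotype, the fitted log2 fold change was 4.18 ± 1.01 (SE). It was between 3.69 and 4.73 when any 1 library was left out, and the highest of these values was without the KO library of day 33.

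The sums of macrophage, endothelial and skeletal muscle markers fell in KO after day 33. The 8 measured macrophage markers summed to 51.8, 8.40 and 6.85 CPM in KO and to 111, 27.5 and 10.2 CPM in WT, a decline in both genotypes, with Adgre1 at 0 in KO on day 42. The endothelial markers summed to 11.5, 6.38 and 6.44 CPM in KO and to 12.9, 14.5 and 13.2 CPM in WT. The 4 skeletal muscle markers summed to 7.15, 1.23 and 0.634 CPM in KO and to 3.42, 2.13 and 1.204 CPM in WT, of which 2 were at 0 in all libraries. Neural and glial markers, a lineage in which Mycn is active, summed to 52.6, 58.4 and 43.6 CPM in KO and to 54.8, 56.4 and 40.0 CPM in WT, nearly all of it Tubb3. Epithelial markers summed to 19.84, 21.16 and 24.04 CPM in KO and to 39.7, 35.9 and 19.6 CPM in WT. Those of pluripotent and germ cells summed to 0.778, 0.672 and 0.533 CPM in KO and to 2.48, 1.86 and 2.84 CPM in WT, with 2 of 4 at 0 in all libraries. Among the latter, Ddx4 passed edgeR's quasi-likelihood test, at 0.469 ± 0.059 CPM in KO and 2.14 ± 0.39 CPM in WT (adjusted p = 0.00924). Its call was lost without KO day 36 and without KO day 42. The part of these markers in the Mycn result was not tested. Mycs, an X-linked gene copied from Mycn, had 1, 9 and 15 counts in KO and 1, 1 and 0 counts in WT. Because the 2 genes share sequence, reads of one can be split between both.

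**Figure D1:**
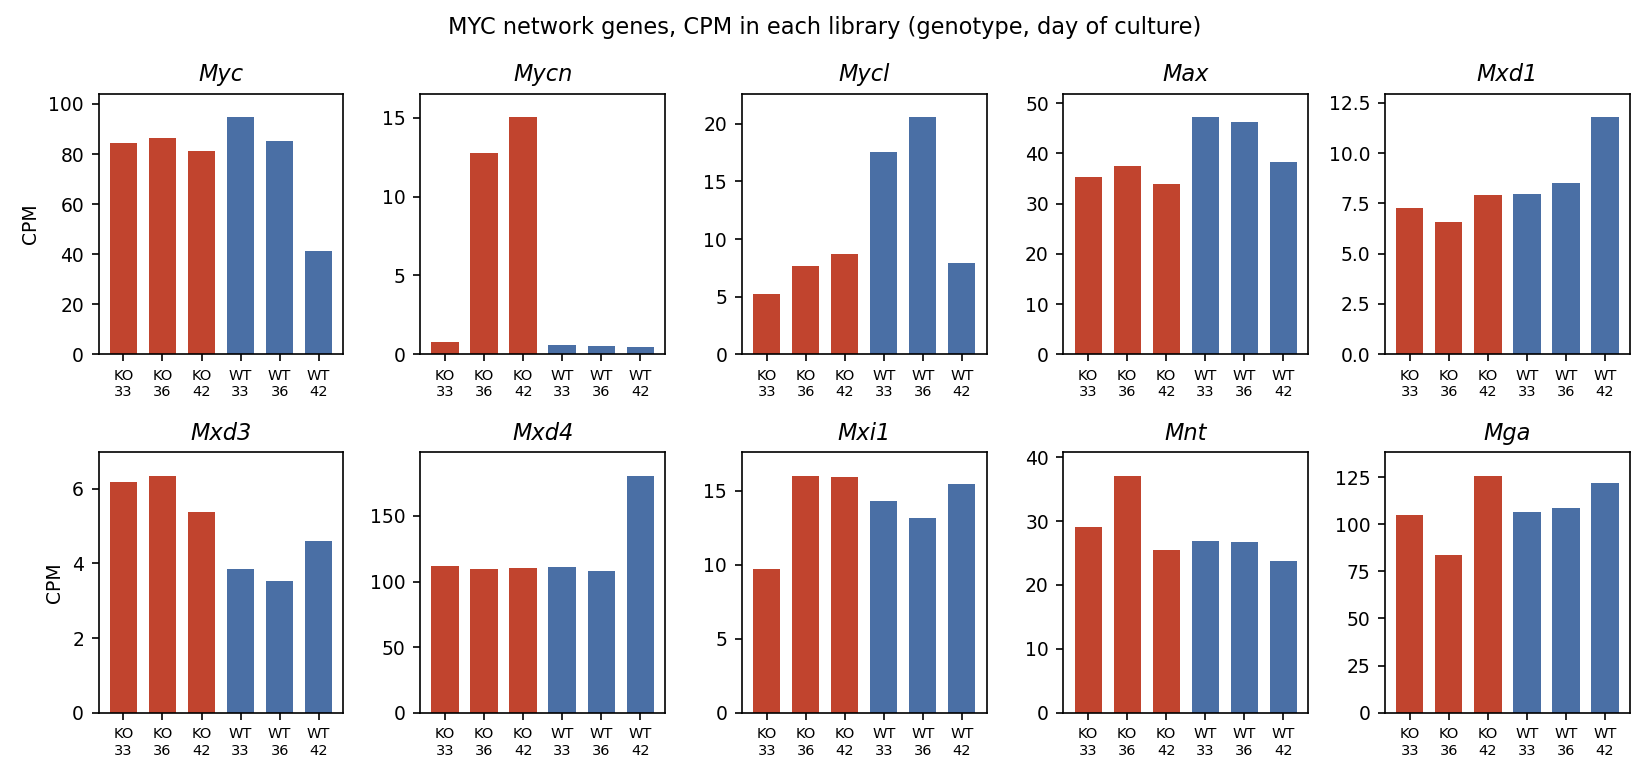
Level in CPM (vertical axis, from 0) of each of the 10 genes in the 3 KO libraries (red) and the 3 WT libraries (blue), labelled with the day of culture; each bar is 1 library. In KO, Mycn is at 12.8 CPM on day 36 and 15.04 CPM on day 42, and it is under 1 CPM in the other 4 libraries, and Myc is at 41.3 CPM in WT on day 42 and above 80 CPM elsewhere.

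The promoter of Mycn is shown because it is the member whose level differed most between libraries. The window runs from 250 bases before to 50 bases after the RefSeq start, at chr12:12941787-12942086 of GRCm38.p6 (the mm10 build), minus strand, and is printed 5′ to 3′. Capitals mark the E2F motif TTTGGCGC.
Mycn promoter: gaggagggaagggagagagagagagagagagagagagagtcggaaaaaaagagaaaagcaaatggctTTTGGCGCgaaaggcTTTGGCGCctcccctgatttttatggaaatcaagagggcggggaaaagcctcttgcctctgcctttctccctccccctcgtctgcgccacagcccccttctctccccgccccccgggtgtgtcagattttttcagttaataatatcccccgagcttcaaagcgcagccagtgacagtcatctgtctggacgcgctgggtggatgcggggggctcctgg
Both matches, whose first bases lie at positions -183 and -168 from the start, read the same way and do not overlap. The motifs searched were TTTCCCGC and TTTGGCGC on both strands, which E2F proteins, regulators of the cell division cycle, are known to bind, and the E-box CACGTG, which reads the same on both strands. An E2F motif was found for 1.80% of the 27025 genes with a promoter in the table, and for 1 of the 9 members that have one. The window of Mycn holds no CACGTG. A match describes letters and not binding.

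The E-box was found in the windows of 3 of these 9 members, Max, Mnt and Mxd4, against 8.09% of all genes with a promoter. They are printed with 10 bases on each side and the E-box in capitals, because they are the members whose own promoters hold the site that the family binds. Max lies at chr12:76962236-76962261 (minus strand), Mnt at chr11:74830791-74830816 (plus strand) and Mxd4 at chr5:34187914-34187939 (minus strand).
Max: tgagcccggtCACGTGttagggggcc
Mnt: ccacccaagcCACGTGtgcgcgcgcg
Mxd4: gctgggccacCACGTGctgttgctaa
The site of Max begins 3 bases before the start, that of Mnt 123 bases before it and that of Mxd4 219 bases before it, counted to the first base of the E-box. Mxi1 has 3 windows in the table, none of which holds an E-box or an E2F motif, and neither do those of Mycl, Mga, Mxd1 and Mxd3.

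Myc (chromosome 15, 61985391 to 61990374, plus strand), the member that growth factor signals induce in fibroblasts, was at 84.3, 86.4 and 81.0 CPM in KO and at 94.7, 85.4 and 41.3 CPM in WT. The 3 KO libraries and the first 2 WT libraries lay within a narrow band, and the WT library of day 42 stood alone below it. On that day the KO level was 1.96 times the WT level (counting interval 1.84 to 2.09), against 0.890 on day 33 (0.848 to 0.933) and 1.01 on day 36 (0.960 to 1.07). Within WT, the level of day 42 was 0.484 times that of day 36 (0.455 to 0.514), whereas within KO this ratio was 0.938 (0.889 to 0.990). Over the 3 libraries of each genotype the log2 fold change was 0.18 ± 0.29, smaller than its error, and -0.10 without the WT library of day 42.

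Mycl (chromosome 4, 122995652 to 123002485, plus strand), a paralog first known from lung cancer, was at 5.24, 7.65 and 8.67 CPM in KO and at 17.5, 20.6 and 7.91 CPM in WT. KO lay well below WT on the first 2 days and not on day 42. KO stood at 0.299 times WT on day 33 (0.253 to 0.352) and at 0.372 times on day 36 (0.318 to 0.433), and at 1.096 times on day 42 (0.933 to 1.29). KO day 42 was 1.66 times KO day 33 (1.376 to 1.999), and WT day 42 was 0.452 times WT day 33 (0.393 to 0.518). The difference between these 2 ratios was not tested, as there is 1 library on each side. The fitted log2 fold change was -1.09 ± 0.37, and between -1.40 and -0.82 when any 1 library was left out.

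Max (chromosome 12, 76937269 to 76962201, minus strand), the partner shared by all other proteins of the set, was at 35.4, 37.4 and 34.0 CPM in KO and at 47.2, 46.2 and 38.3 CPM in WT. All 3 KO values lay below all 3 WT values, with a log2 fold change of -0.30 ± 0.11. The KO to WT ratio was 0.749 on day 33 (0.698 to 0.805), 0.811 on day 36 (0.751 to 0.875) and 0.889 on day 42 (0.823 to 0.959). The WT library of day 42 was the one closest to KO.

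**Figure D2:**
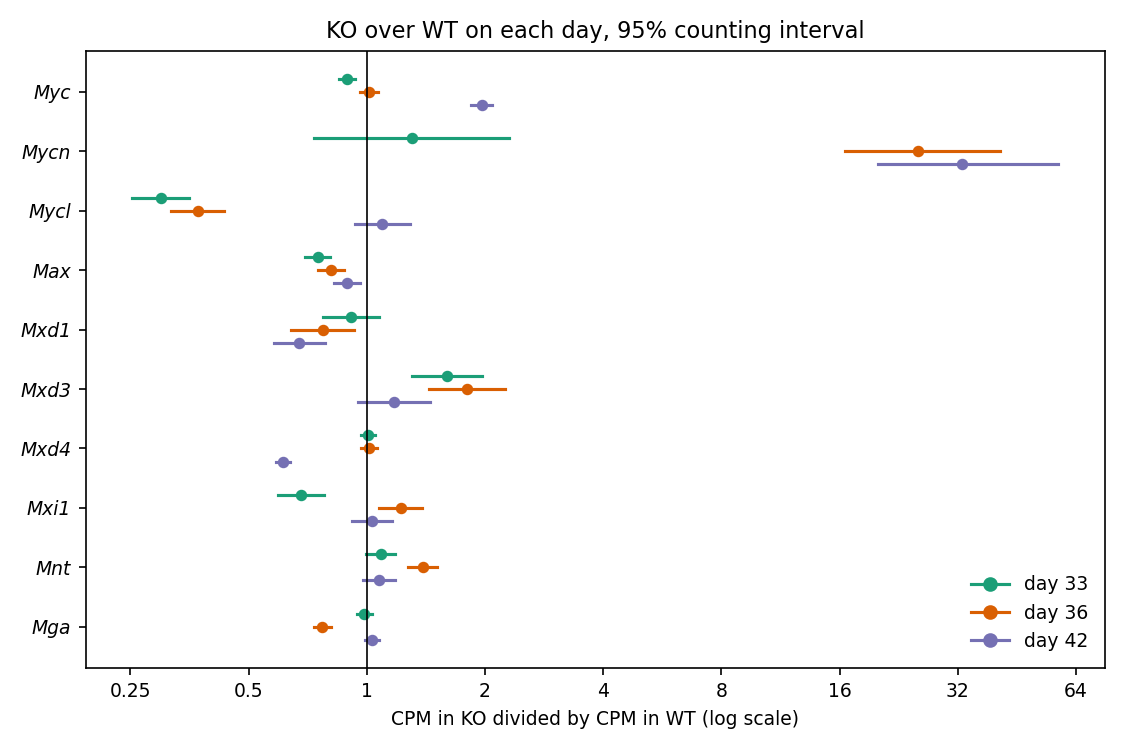
CPM in KO divided by CPM in WT (horizontal axis, log scale) for each gene on days 33, 36 and 42, with points for the ratio and lines for the exact 95% counting interval; each ratio compares 1 library with 1 library. Mycn reaches 25.4 and 32.8 on days 36 and 42, Mycl stands at 0.299 and 0.372 on days 33 and 36, and Myc and Mxd4 leave 1 by most on day 42, at 1.96 and 0.611.

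Among the repressors, Mxd4 (chromosome 5, 34173883 to 34187720, minus strand), a MXD protein of resting and differentiating cells, was at 112, 110 and 110 CPM in KO and at 111, 108 and 181 CPM in WT. The WT library of day 42 thus lay above 5 libraries that gave nearly the same value. There the KO to WT ratio was 0.611 (0.588 to 0.635), against 1.01 on day 33 (0.966 to 1.05) and 1.01 on day 36 (0.967 to 1.06). The same library that was low in Myc was thus high in Mxd4, which was 1.67 times its level of WT day 36 (1.61 to 1.74).

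Mxd1 (chromosome 6, 86647042 to 86669161, minus strand), a MXD protein induced as cells stop dividing and mature, was at 7.27, 6.57 and 7.94 CPM in KO and at 7.99, 8.51 and 11.8 CPM in WT. All KO values lay below all WT values by a narrow margin, with the WT library of day 42 again the highest, at 1.39 times WT day 36 (1.201 to 1.598). The log2 fold change was -0.37 ± 0.18, and -0.18 without that library. Mxi1 (chromosome 19, 53310518 to 53375810, plus strand), the MXD protein also called MXD2, was at 9.72, 16.01 and 15.95 CPM in KO and at 14.3, 13.1 and 15.5 CPM in WT. Here the KO library of day 33 was the low one, and the later KO libraries lay just above all WT libraries, so the log2 fold change was -0.04 ± 0.21.

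Mxd3 (chromosome 13, 55325168 to 55329823, minus strand), the MXD protein found in dividing cells during DNA replication, was at 6.16, 6.34 and 5.38 CPM in KO and at 3.84, 3.53 and 4.59 CPM in WT. It was the only member besides Mycn whose KO values all lay above the WT values, with a log2 fold change of 0.58 ± 0.16. The ratio was 1.603 on day 33 (1.31 to 1.97) and 1.80 on day 36 (1.44 to 2.25), and on day 42 it was 1.17 with an interval of 0.9501 to 1.448 that includes no difference. Mxd3 overlaps Prelid1 on the opposite strand. No source used here tells whether the counting used the strand, so reads of the 2 genes may be mixed. Among the counts assigned to Mxd3 transcripts, a retained-intron form held 52.66 to 81.45% over the 6 libraries. A form typed as processed transcript held 18.55 to 40.35%. In KO on days 33 and 42 and in WT on days 33 and 36, these forms left no counts for the remaining transcript. The Mxd3 level, here and in the order and sums below, thus consists mostly or wholly of forms not typed as protein-coding.

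Mnt (chromosome 11, 74830920 to 74845725, plus strand), the MAX partner present in both resting and dividing cells, was at 29.1, 37.1 and 25.5 CPM in KO and at 26.9, 26.7 and 23.8 CPM in WT. Its genotypes overlapped, KO was the higher on each of the 3 days, and the KO library of day 36 stood out, at 1.39 times WT (1.28 to 1.51). Mga (chromosome 2, 119897228 to 119969581, plus strand), which joins MAX to a Polycomb complex named PRC1.6, was at 105, 83.7 and 126 CPM in KO and at 106, 109 and 122 CPM in WT. The same KO library was the lowest for Mga, at 0.771 times WT (0.733 to 0.811), and the log2 fold change over all days was -0.10 ± 0.15.

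Taking the 10 members as a list, 4 had a positive and 6 a negative log2 fold change, with a median of -0.07 beside -0.01 over all genes tested. None of the 10 passed an adjusted p below 0.05 in edgeR's quasi-likelihood test, 4 had an unadjusted p below 0.05, and DESeq2 called 3, namely Mycn, Mycl and Mxd3. Over all 17233 genes 8.72% passed the adjusted threshold, 4.07% higher and 4.65% lower in KO, and 27.3% had an unadjusted p below 0.05. KO and WT values did not overlap for 4 members, Mycn and Mxd3 higher and Max and Mxd1 lower in KO, against 34.3% of all genes. These counts come from the contrast that chose the set and show nothing beyond it. Without the KO library of day 33 edgeR called 1 member, Mycn, beside 798 genes higher and 1013 lower over all genes. Without the WT library of day 42 it called 3, Mycl, Max and Mxd3, beside 810 higher and 893 lower over all genes. DESeq2 called 1301 higher and 1554 lower over all genes. These member calls, too, come from the contrast that chose the set and show nothing beyond it.

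Between single libraries a difference was counted where it was at least 2-fold with 5 CPM or more in the higher library. On day 33 this held for 1 member between KO and WT (Mycl), against 4.52% of all genes tested. On day 36 it held for 2 (Mycn and Mycl), against 5.23%, and on day 42 for 1 (Mycn), against 6.64%. Within KO, 1 member (Mycn) differed between days 33 and 36, against 2.32% of genes, and 0 between days 36 and 42, against 0.609%. Within WT, 0 differed between days 33 and 36, against 0.894%, and 2 between days 36 and 42 (Myc and Mycl), against 4.75%. The choice of the set used the levels of all 6 libraries, their differences between days included, so these counts are a description and no test of the day is given for the members.

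Levels of different genes were compared as RPKM, the authors' reads scaled to gene length and library depth, averaged over the columns of a library. Myc ranked highest in both genotypes, at 16.5 ± 0.52 RPKM in KO and 13.5 ± 4.85 RPKM in WT (SD, n = 3 libraries each). Max followed at 9.66 ± 0.47 RPKM in KO and 11.2 ± 0.82 RPKM in WT, and Mxd4 at 7.58 ± 0.22 RPKM in KO and 8.69 ± 3.17 RPKM in WT. In KO these 3 genes were separated from each other beyond their ranges, and in WT their ranges ran into one another. Mga and Mnt came next in both genotypes, at 3.73 and 3.60 RPKM in KO, where their ranges overlapped, and at 3.76 and 2.85 RPKM in WT, where they did not.

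In the lower part of the order several genes had another place in KO than in WT. Mxd3 was at place 6 in KO and 9 in WT, Mycn at 7 in KO and 10 in WT, and Mycl at 9 in KO and 6 in WT. The range of Mxd3 (1.53 to 1.75 RPKM) lay above that of Mycl (0.680 to 1.21 RPKM) in KO, and the ranges of the pair overlapped in WT. In KO, Mxd3 (1.64 ± 0.11), Mycn (1.61 ± 1.31), Mxi1 (1.403 ± 0.401), Mycl (0.976 ± 0.272) and Mxd1 (0.850 ± 0.099 RPKM) each overlapped the next in order. In WT, Mycl (1.92 ± 0.75), Mxi1 (1.36 ± 0.19), Mxd1 (1.04 ± 0.28) and Mxd3 (1.04 ± 0.20) overlapped likewise, and Mycn came last at 0.080 ± 0.010 RPKM, below the range of all others. Even where it was high, Mycn remained a small part of the family's transcripts. Of the summed RPKM of Myc, Mycn and Mycl, Mycn made up 0.725, 10.5 and 12.7% in KO and 0.462, 0.431 and 0.798% in WT.

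The 3 MYC genes together had 16.8, 20.2 and 20.3 RPKM in KO and 19.8, 17.6 and 9.25 RPKM in WT. The 4 MXD genes and Mnt together had 14.09, 16.01 and 15.09 RPKM in KO and 13.3, 12.3 and 19.3 RPKM in WT. Their ratio was 1.19, 1.26 and 1.35 in KO and 1.49, 1.42 and 0.479 in WT. In 5 libraries the activating members were thus the more abundant, and in the WT library of day 42 the repressors were. The same library had the highest level of the matrix gene Dcn, a fibroblast marker. Dcn was at 7.60, 12.76 and 18.4 CPM in KO and 72.1, 23.7 and 170 CPM in WT. The fibroblast markers did not move together there. Of the 9, 4 were lower in WT day 42 than in WT day 36, among them Thy1 at 763 against 1076 CPM, and the rest were higher. The part of these markers in the low ratio of WT day 42 was not tested. With a single library on that day there is no replicate to test it with, and the ratio over days averaged 1.27 ± 0.08 in KO and 1.13 ± 0.56 in WT (SD, n = 3 each).

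**Figure D3:**
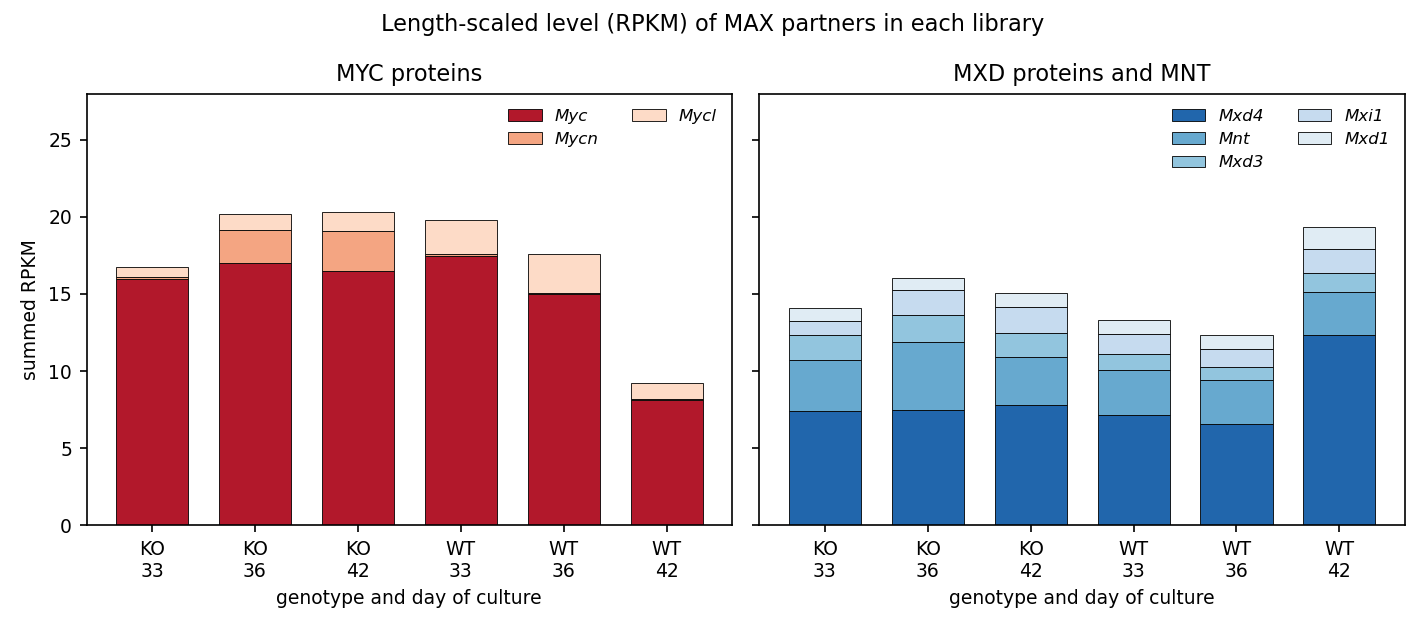
Summed RPKM (vertical axis, from 0) of the MYC genes (left panel) and of the MXD genes with Mnt (right panel) in the 3 KO and 3 WT libraries, stacked by gene; each bar is 1 library. Mycn is a visible layer in KO on days 36 and 42, and WT on day 42 combines the lowest MYC sum, 9.25 RPKM, with the highest MXD and MNT sum, 19.3 RPKM.

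Transcript shares, which the choice of the set did not use, were compared for 14 transcripts of 6 members with at least 2 transcripts above 10% of the gene's counts. None passed 0.05 between KO and WT by an exact two-sided permutation test over 3 against 3 libraries, in which no p can fall below 0.1. The lowest exact p was 0.2, reached by 3 transcripts, and adjusted over the 14 it was 0.891. For Mycn, the transcript Mycn-201 held 33.0, 44.4 and 37.9% of the counts in KO and 33.0, 33.0 and 50.3% in WT. The share was thus the same to the decimal in the 3 libraries with 22 to 28 counts, and Mycn-202 held nearly all the rest. For Myc, Myc-206 held 57.2 ± 2.1% in KO and 61.5 ± 3.9% in WT (SD, n = 3 each).

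None of the 3 genes beside Mycn passed the test of KO against WT. Ddx1, a helicase gene often carried along when MYCN is amplified in human tumours, was at 221, 247 and 249 CPM in KO and at 224, 229 and 204 CPM in WT (log2 fold change 0.12 ± 0.09, adjusted p = 0.443, edgeR's quasi-likelihood test). Nbas was at 69.7, 68.1 and 69.9 CPM in KO and at 59.9, 60.9 and 72.2 CPM in WT, and Fam49a at 4.88, 10.2 and 10.6 CPM in KO and at 17.56, 12.96 and 10.52 CPM in WT. Only Fam49a had its lowest value in the KO library of day 33, where Mycn was low as well. In the WT libraries Mycn was low too, but Fam49a was not, so the 2 genes did not go together over the 6 libraries. Of the genes beside Myc, the noncoding RNA gene Pvt1 was at 16.8, 18.6 and 21.0 CPM in KO and at 22.5, 20.0 and 26.4 CPM in WT. Fam84b was at 26.6, 23.9 and 27.9 CPM in KO and at 34.6, 35.7 and 13.9 CPM in WT. Its level in the WT library of day 42 was low, as that of Myc was, but neither neighbour passed the test over the 3 days.

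Among 10257 named genes averaging 5 CPM or more, the one whose log2 CPM followed Mycn most closely over the 6 libraries was Arhgap29, a GTPase-activating protein. It was at 288, 596 and 610 CPM in KO and at 277, 261 and 255 CPM in WT, with a Pearson r of 0.9997 as a description over 6 libraries that share their depth and scaling. Ltbp4, which binds latent TGF-beta, was at 39.9, 114 and 128 CPM in KO and at 35.4, 32.1 and 38.3 CPM in WT (r = 0.993). Rps6ka1, Cds1 and Cnot10 came next, with r of 0.991, 0.990 and 0.990. All 5 genes were higher in the KO libraries of days 36 and 42 than in the other 4 libraries, and 117 genes in all had an r above 0.95. For Myc, genes among the 5 closest were Caprin1, Ubash3b, Dimt1 and Nudt2, with r between 0.984 and 0.992, among 79 genes above 0.95. Caprin1, an RNA-binding protein, was at 697.6, 705.3 and 688.0 CPM in KO and at 720.0, 716.2 and 588.2 CPM in WT.

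Around the set, 12 lists of partner, cofactor, target and neighbour genes held 144 distinct genes, of which 142 were tested. KO and WT differed for 17 of them by edgeR's quasi-likelihood test, 11 higher and 6 lower in KO, or 12.0% of those tested beside the 8.72% of all genes given above. With KO day 33 left out, 9 genes of these lists were called higher and 7 lower, and with WT day 42 left out 8 and 4. The counts were 2 of each with WT day 36 left out, 2 higher and 0 lower with WT day 33 left out, and 0 with KO day 36 or KO day 42 left out. Over all genes the calls also fell, to 2 higher and 22 lower without KO day 36 and to 18 higher and 50 lower without KO day 42, beside 701 and 802 with all 6 libraries. The fold changes moved little. All 17 genes kept their sign under each of the 6 omissions, and the log2 fold change of a gene was 78.1 to 126% of its value with all libraries.

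Of the complexes that MAX partners recruit, the corepressor list of MXD and MNT (SIN3 and histone deacetylase genes) had 0 of 10 members called. Its median was 0.15, and Rbbp4, a histone-binding subunit, was closest to the threshold with 127 ± 11.3 CPM in KO and 98.2 ± 1.53 CPM in WT (adjusted p = 0.0535). In the PRC1.6 complex that contains MGA, L3mbtl2 was higher in KO at 23.2 ± 1.50 CPM, against 17.2 ± 0.36 CPM in WT (adjusted p = 0.0362). E2f6, its E2F-type repressor, was lower in KO at 37.0 ± 6.86 CPM, against 57.3 ± 2.48 CPM in WT (adjusted p = 0.0435). Of 17 other settings, the call was lost in 7 for L3mbtl2 and in 6 for E2f6. The other 7 of 9 tested members did not pass. Neither of the 2 tested genes of the MLX arm, which pairs with MXD proteins and MNT, was called.

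Of 14 coactivators and cofactors of MYC, Ep400, a chromatin remodeller of the TIP60 complex, was higher in KO at 144 ± 7.01 CPM, against 113 ± 3.66 CPM in WT (adjusted p = 0.045). Paf1, of the elongation complex to which MYC binds, was lower in KO at 49.2 ± 1.26 CPM, against 64.4 ± 4.68 CPM in WT (adjusted p = 0.0435). The median of this list was 0.22, with 13 of 14 members positive. Of 13 genes of MYC protein turnover, 2 were higher in KO. Usp28, a deubiquitinase that protects MYC from FBXW7, averaged 31.2 ± 5.58 CPM in KO and 19.5 ± 1.51 CPM in WT (adjusted p = 0.0404). Aurka, a mitotic kinase that stabilises the MYCN protein, averaged 40.8 ± 1.41 CPM in KO and 28.8 ± 3.46 CPM in WT (adjusted p = 0.0419). Among 17 other settings, the call was lost in 7 each for Ep400 and Paf1, 6 for Usp28 and 8 for Aurka. Fbxw7 itself, the ubiquitin ligase subunit that marks MYC for destruction, was at 20.4 ± 2.47 CPM in KO and 26.6 ± 1.43 CPM in WT and did not pass (adjusted p = 0.0894).

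Genes known to be induced by MYC for ribosome building leaned to the KO side as a list. All 31 had a positive log2 fold change, with a median of 0.28 beside -0.01 over all genes. Of the 31, 2 passed the test, both higher in KO. Over all genes 4.07% were called higher and 8.72% in either direction. When any 1 library was left out, 0 or 1 of the 31 passed. The median was 0.24 to 0.34 when any of the other 5 libraries was left out, and 0.16, with 29 genes positive, without WT day 42. Polr1b, a subunit of RNA polymerase I, was at 38.3, 42.4 and 55.2 CPM in KO and at 28.4, 28.9 and 23.5 CPM in WT (log2 fold change 0.75 ± 0.16, adjusted p = 0.0404). Grwd1, a ribosome assembly chaperone, was at 39.8, 43.7 and 44.4 CPM in KO and at 28.9, 30.9 and 22.4 CPM in WT (0.64 ± 0.14, adjusted p = 0.0391). For both, every KO value lay above every WT value. Their calls were lost in 7 of 17 other settings for Polr1b and in 6 for Grwd1.

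The lean differed by day and was widest on day 42. The median difference between KO and WT of the 31 genes was 0.09 on day 33, 0.17 on day 36 and 0.59 on day 42 on the log2 scale. Between WT days 36 and 42, 30 of the 31 genes were lower on day 42, with a median of -0.47, while 49.2% of all genes tested were lower, with a median of 0.01. Between KO days 36 and 42, 15 of the 31 were lower, with a median of 0.01. The WT library of day 42 was thus low in ribosome building genes as well as in Myc and Mycl. These are differences between single libraries and carry no test.

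**Figure D4:**
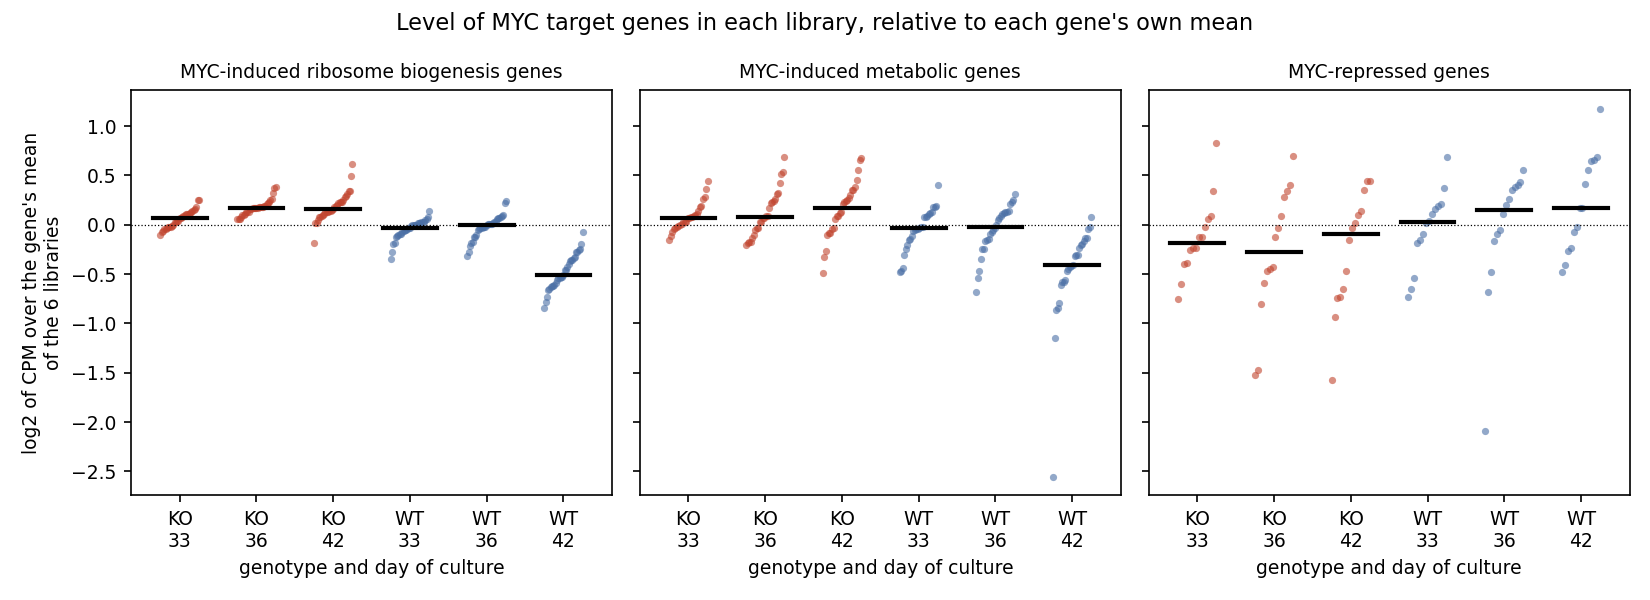
Log2 of each gene's CPM over its own mean of the 6 libraries (vertical axis) in the 3 KO libraries (red) and the 3 WT libraries (blue), for 3 lists of MYC targets; points are genes and bars are medians. All 31 ribosome biogenesis genes are below their own mean in WT on day 42, with a median of -0.51, and the medians of the other 5 libraries lie between -0.03 and 0.17.

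Genes that MYC is known to induce for metabolism had 4 of 26 members higher and 0 lower in KO, with a median of 0.22. Of all genes tested, 4.07% were called higher. Leaving out either of the later KO libraries left 0 metabolic genes called. Leaving out WT day 33 or WT day 36 left 1. Leaving out WT day 42 left 2, with 15 of the 26 genes positive and a median of 0.16. Slc1a5, the glutamine transporter, was at 59.0, 61.2 and 63.1 CPM in KO and at 41.6, 33.8 and 37.0 CPM in WT (0.71 ± 0.10, adjusted p = 0.0139). Shmt1, a serine hydroxymethyltransferase that feeds one-carbon units into nucleotide synthesis, was at 19.5, 26.3 and 29.3 CPM in KO and at 13.3, 11.5 and 10.3 CPM in WT (1.099 ± 0.180, adjusted p = 0.0202). Paics, of purine synthesis, rose by 0.83 ± 0.19 (adjusted p = 0.0471), and Umps, of pyrimidine synthesis, by 0.49 ± 0.11 (adjusted p = 0.0483). Of 17 other settings, the call was lost in 2 for Slc1a5, 4 for Shmt1, 7 for Paics and 9 for Umps. All 4 serve amino acid supply or nucleotide synthesis. The metabolic list, too, was lower in the WT library of day 42 than in that of day 36, in 21 of 26 genes and with a median of -0.31.

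E-boxes occurred in the promoter windows of 7 of the 27 ribosome building genes that have one in the table (25.9%) and of 4 of 21 metabolic genes (19.0%), beside the 8.09% of all genes. They also occurred for 2 of 10 cell cycle targets (20.0%) and 2 of 3 genes of the MLX arm (66.7%), lists with 0 genes called higher. For genes that MYC is known to repress it was 0 of 10. The windows of Grwd1 (chr7:45830740-45830765, minus strand) and Paics (chr5:76951089-76951114, plus strand) are printed as those of the called target genes with the site, in GRCm38.p6 and with the E-box in capitals.
Grwd1: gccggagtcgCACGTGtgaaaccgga
Paics: cctcggaaagCACGTGgagggacctg
That of Grwd1 begins at position 35 after the start, and that of Paics 203 bases before it. The windows of the other called genes of these lists that are in the table do not hold these letters.

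MYC targets of the cell cycle list had 0 of 12 members called higher and 1 called lower in KO. Of the 12, 8 had a positive log2 fold change, with a median of 0.12 (0.10 to 0.19 when any 1 library was left out). The member called lower was Ccnd2, cyclin D2, at 884 ± 46.2 CPM in KO and 1582 ± 221 CPM in WT (log2 fold change -0.84 ± 0.14, adjusted p = 0.0208). Among 14 genes that MYC is known to repress, 1 was higher and 2 were lower in KO, with a median of -0.35, and -0.13 without WT day 42. Cdkn2b, which encodes the inhibitor p15, was at 24.95, 13.21 and 12.70 CPM in KO and at 61.0, 55.5 and 59.8 CPM in WT (-1.79 ± 0.27, adjusted p = 0.0169). Cdkn1a, which encodes p21, was at 409, 328 and 269 CPM in KO and at 580, 592 and 501 CPM in WT (-0.73 ± 0.17, adjusted p = 0.0478). Cdkn1b, which encodes p27, went the other way, at 68.0, 71.1 and 73.0 CPM in KO and 32.3, 38.6 and 38.6 CPM in WT (0.95 ± 0.10, adjusted p = 0.00897). The 3 inhibitors thus did not share a direction. Among 17 other settings, the call was lost in 3 each for Ccnd2 and Cdkn2b, 5 for Cdkn1a and 2 for Cdkn1b.

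Proliferation markers had a larger median difference than any of these lists. Of 12 such genes 11 were higher in KO and 0 lower, with a median of 0.83 and summed levels of 1157, 1313 and 1357 CPM in KO and 755, 745 and 728 CPM in WT. Leaving out KO day 36 left 0 of these calls, leaving out KO day 42 left 1 and leaving out WT day 33 left 5, with medians of 0.76 to 0.91 under all 6 omissions. Their part in the values of MYC targets, many of which also follow cell division, was not tested. Of 7 tested genes of the Hedgehog pathway, a known inducer of Mycn, 0 were higher and 1 was lower in KO. That gene was Hhip, an inhibitor of the pathway, with 0.962 ± 0.230 CPM in KO and 2.19 ± 0.47 CPM in WT (adjusted p = 0.0457). Its log2 fold change was -1.39 to -1.01 when any 1 library was left out, with adjusted p between 0.038 and 0.175. The call was lost in 10 of 17 other settings, among them no expression filter, day as a factor and leaving out column 1, 2 or 3. Gli1 and Ptch1 of the same pathway did not pass edgeR's quasi-likelihood test. Gli1 was at 0.503 ± 0.115 CPM in KO and 0.285 ± 0.095 CPM in WT (adjusted p = 0.179). Ptch1 was at 26.1 ± 2.21 CPM in KO and 22.4 ± 5.22 CPM in WT (adjusted p = 0.468).

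**Figure D5:**
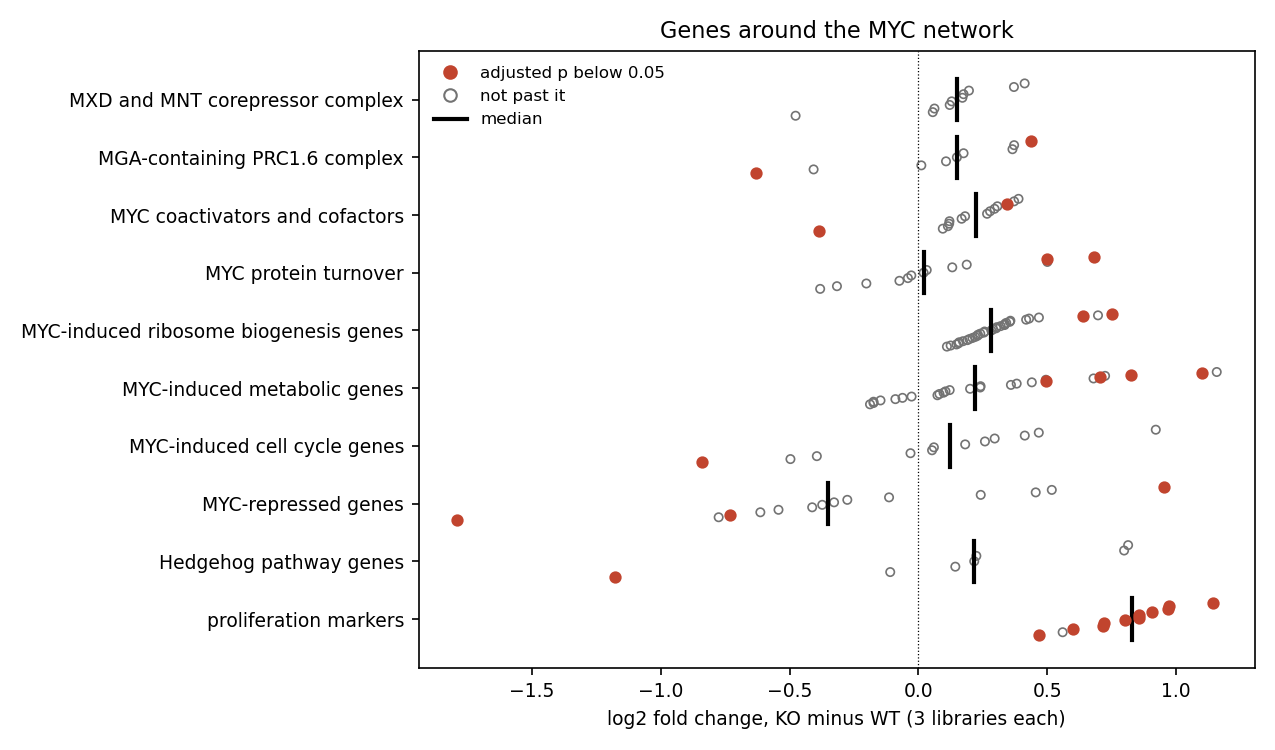
Log2 fold change of KO over WT (horizontal axis) for the tested genes of 9 lists around the MYC network and of the proliferation markers, 3 libraries each; points are genes, filled where the adjusted p of edgeR's quasi-likelihood test was below 0.05, and bars are medians. All 31 ribosome biogenesis genes lie right of 0 with a median of 0.28, and the proliferation markers have a median of 0.83.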

How the data were processed

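Poly(A)-selected RNA of 24 labelled samples, 4 for each genotype and day, was sequenced. Per the file headers, the authors deposited estimated counts of genes and transcripts, not normalized, and RPKM of genes. A further 24 columns of transcript values were left out. According to the submitters' processing notes the build was mm10 and the tools included Bowtie2 2.2.1 and limma 3.18.13. The sources used here do not give the counting program or its strand setting. The 4 columns of a group differed by less than sampling noise (mean chi-square per degree of freedom 0.832 to 0.843 over 12385 to 13738 genes, against 12.8 to 67.0 between groups), so they were summed, rounded and counted as 1 library. The p-values are set against the spread between the 3 libraries of a genotype only. These libraries are 3 days at different passages and the main fit holds genotype alone, so that spread includes change over time. The rest of it may be technical. Totals were 25650577 to 48716880 counts.

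KO and WT were compared over 17233 genes passing filterByExpr in R 4.3.3 with the robust quasi-likelihood test of edgeR 4.0.16 and TMM factors (0.927 to 1.08), adjusted by Benjamini-Hochberg over all genes, at a threshold of 0.05. The script was tested on simulated data. Other settings tried were limma-voom (limma 3.58.1), DESeq2 1.42.0 and its size factors, no filter, left-out libraries or columns, day as a factor, and 24 columns with and without the column number as a block. Ratios of single libraries have exact 95% counting intervals, conditional on the summed counts. The log2 CPM had a prior count of 2. Transcript shares were tested with scipy 1.17.1. Coordinates are from GENCODE M21 by gene ID; promoter windows are RefSeq's, GRCm38.p6. Members, lists and tests were chosen with earlier results of these data known. Named genes were all members, up to 4 per list by adjusted p, and 5 each most like Mycn and Myc, of which 1 is not reported here.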

Additional observations from a re-analysis of the deposited data

Results flagged for a closer look

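Mycl moved in opposite directions in the 2 genotypes between days 33 and 42. Its day 42 to day 33 ratio was 1.66 in KO and 0.452 in WT. The difference between these ratios was not tested, because each rests on 2 single libraries.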

How the results depend on the processing

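No called value changed sign under the alternatives that were run. For Mycn the log2 fold change was 3.33 by limma-voom, 3.56 with day as a factor and 3.69 to 4.73 when any 1 library was left out. The number of members called was 0 by edgeR, 3 by DESeq2, 0 to 3 without 1 library, 0 to 1 without 1 numbered column, and 6 with the 24 columns as separate libraries, in which Mycn fell below the filter. With the column number as a replicate block it was also 6. The numbers do not pair the samples, as same-numbered columns correlated at -0.033 to 0.032 over 9568 genes. Those p-values measure sampling noise only. Of the genes in the lists, 11 were higher and 6 lower; DESeq2 called 19 higher, no expression filter left 7, day as a factor 5, leaving out 1 library 0 to 9 higher and 0 to 7 lower, and leaving out 1 numbered column 8 to 10 higher and 4 to 6 lower. With 24 columns 80 were higher and 24 lower, and with the replicate block 76 and 23. Of all genes 701 were higher and 802 lower; DESeq2 called 1301 and 1554, 24 columns 4032 and 4141, the replicate block 3887 and 3959. Leaving out 1 library gave 2 to 810 higher and 22 to 1013 lower. Among days DESeq2's likelihood ratio test called 339 genes, against 0 by edgeR. The causes were not tested. Without WT day 42 the log2 fold change of Myc was -0.10, of Mxd4 0.02 and of Mxi1 0.02. That of Mxi1 was 0.16 without KO day 33 and that of Mga 0.04 without KO day 36. These 5 changes of sign, in 4 genes, concern values near their errors or below them. With 16 to 28 counts of Mycn per WT library, its changes among the WT days were not detectable at this depth.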
